A study of Saccharomyces cerevisiae with 14 samples.

Results

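Yeast cells exposed for 30 min to HMF (5-hydroxymethylfurfural), an aldehyde released when plant biomass is pretreated for fermentation, were compared with untreated cells of the same time. Of the 14 arrays of the series, 4 belong to this comparison: 2 biological replicates of *Saccharomyces cerevisiae* NRRL Y-12632 in synthetic complete (SC) medium with 30 mM HMF, and 2 of the same strain, medium and time with no HMF. They were chosen by treatment and time in the sample titles, and all 6387 open reading frames on the arrays are described. On each array the test RNA carried Cy3 and RNA of the untreated culture at 0 min carried Cy5, with no dye swap, so that every value is a log2 ratio to 0 min. Each array was centred on the median of its genes, and a difference is HMF minus control on that scale. The labels name no altered gene in the strain and do not say whether replicates of the same number came from 1 inoculum.

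HMF carries a reactive aldehyde group. Yeast reduces it to the alcohol furan-2,5-dimethanol with NADPH-dependent reductases, among them products of the alcohol dehydrogenase and short-chain reductase families. Aldehyde stress is also known to engage the Pdr1/Pdr3 regulators of membrane pumps, Yap1, and Rpn4, which drives the proteasome genes. Ribosomal protein genes depend on the factor Rap1 and on growth signals, and many amino acid biosynthesis genes on the factor Gcn4.

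The 4 arrays as deposited had medians of 0.06 and 0.01 with HMF against 0.12 and 0.64 without (log2, replicates 1 and 2). Across genes, the correlation between replicates was 0.51 with HMF and 0.46 in the control, and replicate 2 of HMF correlated with the control arrays at 0.24 and 0.46. The median SD between replicates was 0.289 with HMF and 0.239 in the control (n = 2 each), and the median SE of a difference was 0.329. Centring moved every difference up by the same amount, since the array medians were lower with HMF by a mean of -0.34 (log2), and every change below is relative to that shift. A change in every cell cannot be told apart from a change in some of the cells of a culture.

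At 30 min, 164 genes (2.57% of 6387) passed the limit of 0.05 on the adjusted p in limma (Benjamini-Hochberg over the 6387 genes). Of these, 52 genes (0.814%) were higher with HMF and 112 (1.75%) were lower. Counts of list members that passed are to be read against these shares. The higher genes had a median difference of 1.29 and reached 6.64 in *ADH7*, and the lower genes had a median of -1.38 and reached -3.80 in YNL105W. At least 2-fold were 51 of the higher and 106 of the lower genes, at least 4-fold 10 and 13, and at least 8-fold 4 and 3. Both HMF arrays lay outside both control arrays in all 164 genes, a pattern seen upward in 21.7% and downward in 22.1% of all genes tested.

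The control arrays of these genes stayed near the 0 min level, with a mean within 0.5 of 0 in 49 of the 52 higher and 105 of the 112 lower genes. Across all genes the centred control arrays had an SD of 0.77 and 0.61 (replicates 1 and 2). The share of all genes with such a control mean is not given here, so the counts do not set these genes apart from the rest. With HMF, all 52 higher genes were above the level of 0 min, and 111 of the 112 lower genes were below it, YPL035C being the exception. Without adjustment, 444 genes were higher and 543 lower at p of at most 0.05, and 316 higher and 342 lower genes differed by at least 2-fold but did not pass. Most genes moved little, with 63.6% of all genes between -0.5 and 0.5.

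The count rested on the spread estimated over all times and on each array. It was 17 on the values as deposited, 23 after quantile normalization, 335 with the replicate number as a block over all times and 0 when only the 4 arrays of 30 min were fitted (limma, with 776 genes at an unadjusted p of at most 0.05). It fell to between 6 and 10 without any of the 4 arrays of 30 min, to 8 without either control array of 60 min and to 49 without either HMF array of 60 min. Over 10 settings (deposited values, quantile normalization, both replicate blocks, robust eBayes, the 4 arrays alone and each array of 30 min left out) *ARI1*, *PDR5* and *CHA1* passed in all but the fit of the 4 arrays alone. None of the 125 genes named by rule that passed changed its sign, but only quantile normalization could have changed one. In these genes the HMF and control arrays do not overlap, and each difference is larger than the centring shift.

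**Figure D1:**
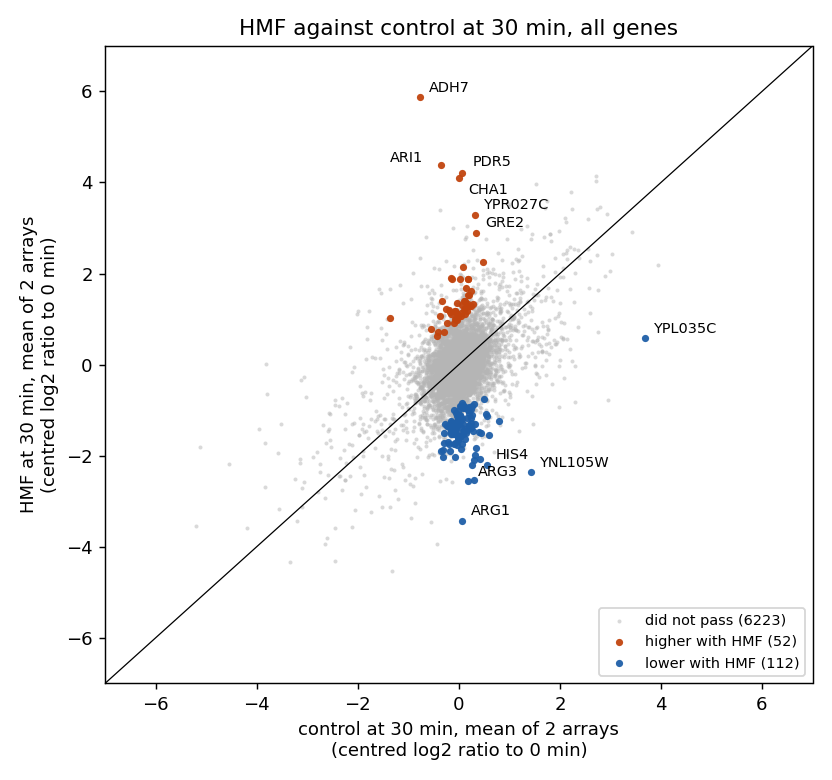
Mean of the 2 HMF arrays (vertical axis) against the mean of the 2 control arrays (horizontal axis) at 30 min for each of the 6387 genes, as centred log2 ratios to 0 min, with the line of equality. The 52 genes that passed as higher (orange) and the 112 that passed as lower (blue) lie above and below a dense group near 0 on the control axis, and YPL035C, with a high control mean, lies apart.

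The 2 genes with the largest differences encode enzymes of aldehyde reduction. *ADH7* (YCR105W), an NADPH-dependent alcohol dehydrogenase of broad substrate range, was at 5.94 and 5.82 on the HMF arrays and at -0.39 and -1.13 on the control arrays (centred log2 ratios to 0 min, replicates 1 and 2), a difference of 6.64 (SE 0.79, adjusted p = 0.0179). *ARI1* (YGL157W), an NADPH-dependent aldehyde reductase, was at 4.49 and 4.26 with HMF and at -0.73 and 0.02 in the control. Its difference of 4.73 (SE 0.28, adjusted p = 0.000245) was smaller than that of *ADH7* but had a smaller error. *GRE2* (YOL151W), a reductase of methylglyoxal and 3-methylbutanal, was at 3.31 and 2.49 with HMF against 0.43 and 0.23 (2.57, SE 0.28, adjusted p = 0.0164). In the 3 genes both HMF arrays were far above both control arrays, and in *ADH7* the control arrays lay below 0 min.

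Of the 12 enzymes listed that reduce or oxidize aldehydes, these 3 were higher, against 0.814% of all genes, and none was lower. Both HMF arrays were above both control arrays in 7 of the 12 and below in 1, against 21.7% and 22.1% of all genes. The median difference was 1.24, against -0.02 over all genes. Relative to all genes this median was 0.77 without replicate 1 of HMF, 0.84 without replicate 2 of the control and 1.64 without replicate 2 of HMF, and the replicate block over all times gave 3 higher and 1 lower. *ALD6* (YPL061W), the cytosolic aldehyde dehydrogenase that yields NADPH, was at 1.36 and 1.55 with HMF against -0.78 and -0.33, with a difference of 2.01 that did not pass (adjusted p = 0.07). The stress-inducible *ALD2* (YMR170C) had the difference 2.80, but its control arrays lay far apart, at -4.83 and -1.31 (adjusted p = 0.33). *OYE3* (YPL171C), an NADPH oxidoreductase of the old yellow enzyme family, was at 2.93 and 0.90 with HMF and at 1.52 and -0.35 in the control, so that the groups overlapped (1.33, adjusted p = 0.46). *ADH6* (YMR318C), a close relative of *ADH7*, had a difference of -0.26 (adjusted p = 0.71), and the lowest of the list was *ALD5* (YER073W), a mitochondrial aldehyde dehydrogenase, with -0.85 (adjusted p = 0.08). Outside the list, YDR541C, whose product is related in sequence to that of *GRE2*, was higher by 1.13 (SE 0.24, adjusted p = 0.0468).

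Membrane pumps of pleiotropic drug resistance (PDR) are transporters of the plasma membrane that export toxic compounds. *PDR5* (YOR153W), the main ATP-binding cassette pump of the family, was at 3.64 and 4.79 with HMF against -0.05 and 0.17 in the control, a difference of 4.15 (SE 0.38, adjusted p = 0.00525). *SNQ2* (YDR011W) and *YOR1* (YGR281W), pumps of the same superfamily, were higher by 1.85 (SE 0.29, adjusted p = 0.0249) and 1.34 (SE 0.25, adjusted p = 0.0352). YGR035C, of unknown function, was higher by 2.03 (SE 0.32, adjusted p = 0.0249). Of the 17 PDR genes listed, these 4 were higher, against 0.814% of all genes, and none was lower. The median difference of the list was 1.41. In 12 of the 17 both HMF arrays were above both control arrays, against 21.7% of all genes. *RSB1* (YOR049C), a transporter linked to sphingoid bases, was at 2.68 and 2.84 with HMF against 0.32 and 0.77 and did not pass (2.21, adjusted p = 0.07), nor did the weak acid pump *PDR12* (YPL058C) with 1.98 (adjusted p = 0.13). *ATR1* (YML116W), a multidrug exporter of another family, was lowest with -0.70 (adjusted p = 0.42). *SGE1* (YPR198W), a further multidrug exporter outside the list, was higher by 1.43 (SE 0.29, adjusted p = 0.0412).

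None of the 16 stress transcription factor genes listed passed, the regulators named above among them. *YAP1* (YML007W) was at 0.80 and 1.29 with HMF against -0.32 and 0.01 in the control, the largest difference of the list at 1.20 (adjusted p = 0.08). *PDR3* (YBL005W) had a difference of 1.07 (adjusted p = 0.19), *RPN4* (YDL020C) 0.85 (adjusted p = 0.35), *HSF1* (YGL073W), the heat shock factor, 0.75 (adjusted p = 0.58) and *PDR1* (YGL013C) 0.71 (adjusted p = 0.30). The HMF and control arrays did not overlap in these 5 genes, narrowly so in *RPN4*, at 1.63 and 0.97 with HMF against 0.95 and -0.04. Of the 16 genes, 6 had both HMF arrays above both control arrays and 3 had both below, against 21.7% and 22.1% of all genes. The other members were *YAP5* (0.61), *YAP3* (0.27), *CAD1* (0.17), *CIN5* (0.01), *MSN2* (-0.03), *YAP7* (-0.19), *MSN4* (-0.25), *YAP6* (-0.31), *SKN7* (-0.38), *STB5* (-0.39) and *WAR1* (-0.53), each given as its difference. The median of the list was 0.09 and turned to -0.26 on the deposited values.

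The proteasome, which degrades proteins tagged with ubiquitin, had the most genes that were higher. Of 33 subunit genes, 17 were higher (51.5%, against 0.814% of all genes) and none was lower. The median difference was 1.09, and all 33 lay between 0.78 and 1.41. Both HMF arrays were above both control arrays in all 33 genes, against 21.7% of all genes tested. The list medians were 1.07 and 1.29 with HMF against 0.11 and 0.07 in the control. In the 14 genes of the core particle, the barrel that cuts proteins, 12 passed (median 1.10), and in the 19 genes of the regulatory particle, which unfolds and admits them, 5 passed (median 1.06). None of the 6 *RPT* ATPase genes of the regulatory particle passed, with a median of 1.03. With the replicate number as a block over all times 28 of the 33 passed, 13 in the core particle and 15 in the regulatory particle. Among these were 5 of the 6 *RPT* genes. With a separate block at each time 9 of the 14 core and 6 of the 19 regulatory particle genes passed, with 2 *RPT* genes among them. The size of the contrast between the particles thus depends on the block. The count over the 33 genes was 15 with a block at each time, 1 after quantile normalization and 0 on the deposited values. These calls did not hold without any 1 of the 4 arrays of 30 min. Relative to all genes, the median of the list stayed between 0.95 and 1.17 after quantile normalization and with each of these arrays left out. The other settings tried for lists leave this relative median unchanged by construction. On the deposited values the median difference itself was 0.74.

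*PRE1* (YER012W), a core subunit, had the largest difference, with 0.95 and 1.47 on the HMF arrays and -0.18 and -0.22 on the control arrays (1.41, SE 0.30, adjusted p = 0.0499). *PRE6* (YOL038W), another core subunit, had a smaller difference and a smaller error, with 1.16 and 1.08 against -0.12 and -0.17 (1.27, SE 0.18, adjusted p = 0.0222). *RPN11* (YFR004W), which removes ubiquitin from substrates, was at 1.26 and 1.42 against 0.30 and 0.25 (1.06, SE 0.21, adjusted p = 0.0392). The lowest subunit, *RPN1* (YHR027C), had a difference of 0.78 (adjusted p = 0.33).

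Of other genes tied to protein degradation, some were higher. *ECM29* (YHL030W), which binds core and regulatory particle, was at 1.62 and 1.75 with HMF against 0.16 and 0.12 (1.55, SE 0.21, adjusted p = 0.0191), and *PBA1* (YLR199C), an assembly chaperone, was higher by 1.33 (SE 0.23, adjusted p = 0.0311). *NPL4* (YBR170C), a cofactor of the Cdc48 segregase, was higher by 1.28 (SE 0.21, adjusted p = 0.0263), and *CUZ1* (YNL155W), a zinc finger protein that binds the proteasome and Cdc48, by 1.48 (SE 0.22, adjusted p = 0.0227). *PIM1* (YBL022C), the ATP-dependent protease of mitochondria, was higher by 1.06 (SE 0.21, adjusted p = 0.0404). Of 19 ubiquitin and Cdc48 genes, 2 were higher (*ECM29* and *NPL4*), against 0.814% of all genes, and none was lower. The median difference was 0.57, and 5 were higher with the replicate block over all times. *CDC48* itself (YDL126C) had a difference of 0.64 (adjusted p = 0.34), the polyubiquitin gene *UBI4* (YLL039C) -0.29 (adjusted p = 0.60), and *POC4* (YPL144W), a further assembly chaperone, the lowest, -0.72 (adjusted p = 0.47).

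Of 23 heat shock proteins and chaperones, 1 was higher and none was lower, with a median difference of -0.06. The list leaves out the ribosome-bound chaperones *SSB1* and *SSB2*, described with the ribosome. The gene that passed was *SGT2* (YOR007C), a co-chaperone in the insertion of tail-anchored proteins, with 1.23 and 1.39 against 0.01 and 0.12 (1.24, SE 0.19, adjusted p = 0.0227). *HSP26* (YBR072W), a small heat shock protein, was at 1.12 and 0.58 with HMF and at 1.83 and 0.12 in the control, and *HSP42* (YDR171W), another, was lowest with -0.99 (adjusted p = 0.58). None of 24 oxidant defense genes passed, in a range from -1.20 in *CTT1* (YGR088W), the cytosolic catalase, to 1.23 in *GLR1* (YPL091W), glutathione reductase (adjusted p = 0.37 and 0.51).

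All 22 general stress genes, such as those of trehalose and glycogen metabolism, had differences below 0, with a median of -0.88, and none passed. Both HMF arrays were below both control arrays in only 7 of the 22, against 22.1% of all genes. The median of the list was 0.41 and -1.19 on the HMF arrays and 0.79 and 0.27 on the control arrays, so that replicate 2 of HMF stood apart from the other 3 arrays. *TSL1* (YML100W), a subunit of trehalose synthase, was at 0.52 and -2.01 with HMF against 1.08 and 0.35 without, and *RTN2* (YDL204W), a reticulon of the endoplasmic reticulum, had the lowest difference with -1.51 (adjusted p = 0.58). Relative to all genes the median was -0.06 without replicate 2 of HMF and -1.57 without replicate 1.

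**Figure D2:**
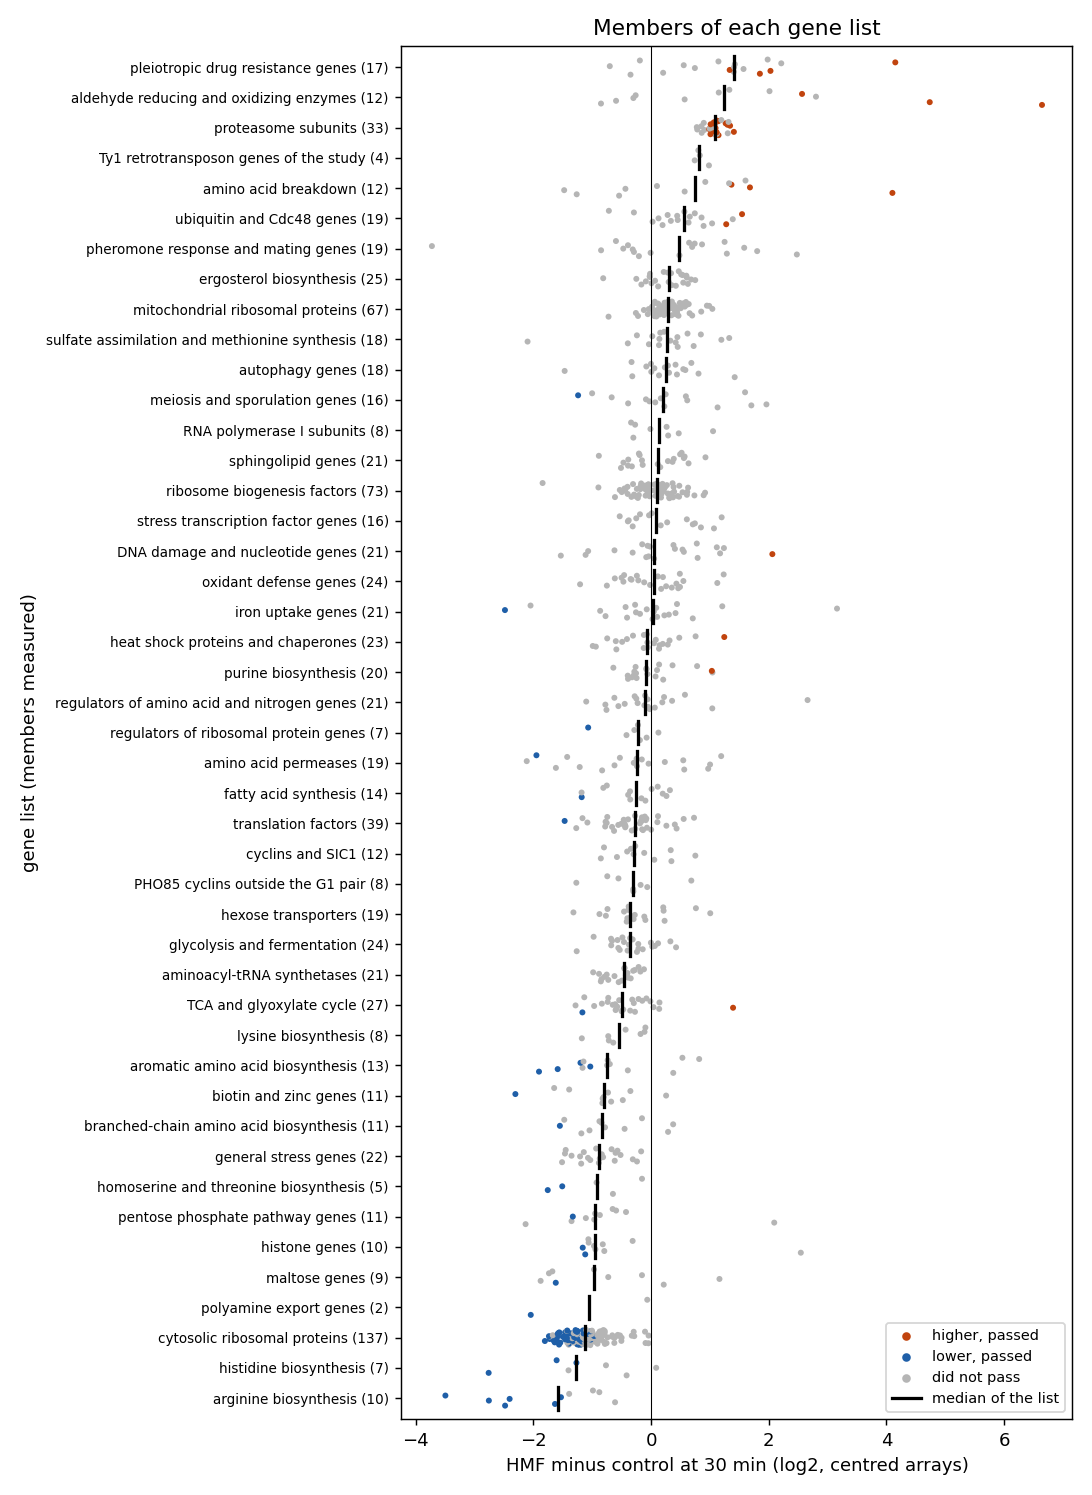
HMF minus control at 30 min (log2, centred arrays; horizontal axis) for each measured member of the 45 gene lists, ordered by the median of the list, with the number of members in parentheses. Proteasome and ribosomal protein genes form narrow groups at medians of 1.09 and -1.12, while aldehyde enzyme and PDR genes are spread from below 0 to 6.64 and 4.15.

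Most genes that were lower encode the translation apparatus or amino acid biosynthesis. The 137 genes of cytosolic ribosomal proteins, which make up the ribosome, were below 0 without exception, with a median difference of -1.12. Of these, 51 were lower (37.2%, against 1.75% of all genes) and none was higher. In 130 of the 137 both HMF arrays were below both control arrays, against 22.1% of all genes. The medians of the list were -1.40 and -1.07 with HMF against -0.15 and -0.09 without. The small subunit had 22 of 56 genes lower (median -1.16) and the large subunit 29 of 81 (median -1.08). *RPL2A* (YFR031C-A), a large subunit protein, had the lowest difference, with -1.57 and -1.92 on the HMF arrays against -0.09 and 0.20 (-1.80, SE 0.26, adjusted p = 0.0222). At the other end *RPS30A* (YLR287C-A) had -0.04 and *RPL41B* (YDL133C-A) -0.04, both genes of very short proteins (adjusted p = 0.98 in each).

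Many ribosomal proteins are encoded by a pair of nearly identical genes. In 59 such pairs the differences of the copies were 0.09 apart in the median pair, with both copies lower in 18 pairs, 1 copy in 9 and neither in 32. Oligonucleotides of such copies can bind the same RNA, so that copies are not separate evidence. The count of lower genes was 82 with the replicate number as a block over all times, 3 after quantile normalization and 0 on the deposited values. These calls did not hold without any 1 of the 4 arrays of 30 min. The median relative to all genes stayed between -1.26 and -0.87 after quantile normalization and with each of these arrays left out. The other settings tried for lists leave it unchanged by construction. On the deposited values the median difference itself was -1.47.

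*RAP1* (YNL216W), whose product binds the promoters of ribosomal protein genes, was at -0.85 and -1.06 with HMF against 0.16 and 0.07 in the control (-1.07, SE 0.19, adjusted p = 0.0313). It was the only gene of the 7 listed regulators of ribosomal protein genes that passed. The others were *SCH9* (-0.42), *SFP1* (-0.28), *FHL1* (-0.22), *HMO1* (-0.19), *CRF1* (-0.07) and *IFH1* (0.13), each given as its difference. *SSB1* (YDL229W) and *SSB2* (YNL209W), near-identical Hsp70 chaperones that act on the ribosome, were lower, with differences of -1.18 and -1.27 (adjusted p = 0.0375 and 0.0392). *ASC1* (YMR116C), a protein of the small subunit, had -1.47 (SE 0.22, adjusted p = 0.0227) and was the only one of 39 genes listed as translation factors that passed, with a list median of -0.27. *YRA1* (YDR381W), an mRNA export factor, was lower, with a difference of -0.95 (SE 0.19, adjusted p = 0.0404).

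Other parts of the translation machinery moved less or not with the ribosome. All 21 aminoacyl-tRNA synthetase genes, whose products charge tRNA, had differences below 0, with a median of -0.45, and none passed, the lowest being *DPS1* (YLL018C) with -0.98 (adjusted p = 0.15). None of 73 ribosome biogenesis factors passed (median 0.11), nor any of 8 RNA polymerase I genes (median 0.13). The 67 mitochondrial ribosomal protein genes had a median of 0.28, with 61 above 0 and none passed, and the median turned to -0.06 on the deposited values. The lists of RNA polymerase I and ribosome biogenesis genes turned to -0.22 and -0.24 on those values.

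Other lists also moved with single arrays or with the block. Without 1 array of 30 min the median relative to all genes turned its sign in 11 of the 45 lists and moved by over 1.5 times in 16 more, while neither was seen in 18, among them the proteasome, ribosomal protein, PDR, arginine, histidine and aromatic lists. Ribosome biogenesis factors turned to -0.18 without replicate 2 of HMF and to -0.12 without replicate 1 of the control, and RNA polymerase I genes to -0.06 without replicate 2 of HMF. With the replicate block over all times 4 genes of the pentose phosphate pathway, 3 of branched-chain synthesis, 4 histone genes and 3 of the TCA and glyoxylate cycle were lower. The same fit called 2 genes lower in each of the translation factor, fatty acid and biotin and zinc lists, and 2 purine genes, 2 Ty1 genes and 2 DNA damage genes higher, with 1 DNA damage gene lower. Of lists with no passed member it called 1 stress transcription factor, 1 autophagy and 1 mating gene higher, 1 aminoacyl-tRNA synthetase, 1 cyclin and 1 *PHO85* cyclin gene lower, and 1 gene each way in sulfate assimilation.

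**Figure D3:**
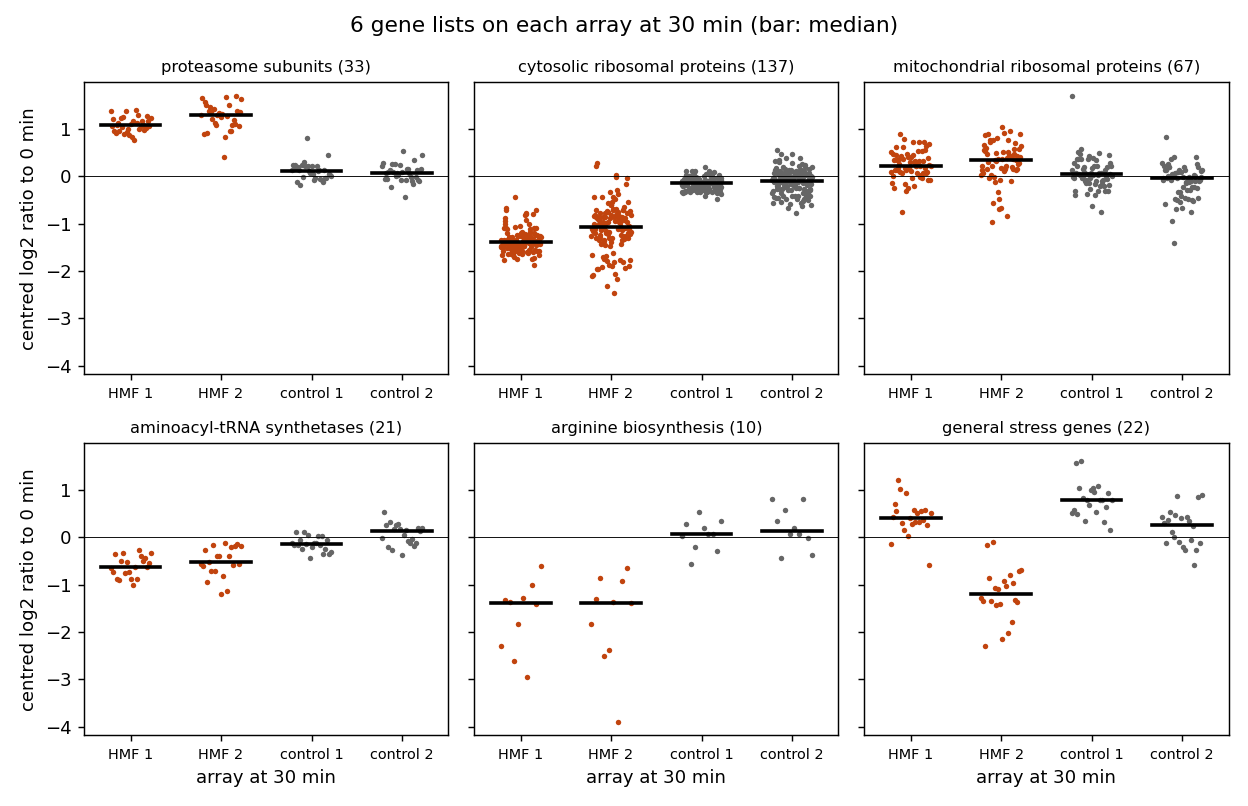
Centred log2 ratio to 0 min (vertical axis) of each member of 6 gene lists on the 4 arrays of 30 min, HMF replicates in orange and control replicates in grey, with the median of each array as a bar. Proteasome (medians 1.07 and 1.29 with HMF) and ribosomal protein genes (-1.40 and -1.07) separate by treatment on both replicates, whereas the general stress genes differ between the HMF replicates (0.41 and -1.19).

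Genes of arginine biosynthesis were among the lowest. *ARG1* (YOL058W), argininosuccinate synthetase, was at -2.95 and -3.90 with HMF against 0.07 and 0.06 in the control, a difference of -3.49 (SE 0.45, adjusted p = 0.0179). *ARG3* (YJL088W), ornithine carbamoyltransferase, was at -2.61 and -2.52 against -0.21 and 0.58 (-2.75, SE 0.36, adjusted p = 0.0179). *ARG5,6* (YER069W), which encodes the enzymes of the second and the third step, was at -2.30 and -1.83 against 0.02 and 0.81 (-2.48, SE 0.32, adjusted p = 0.0179). In each of them the control arrays stayed near or above 0 min. *ARG4* (YHR018C), argininosuccinate lyase, had -1.63 and *ARG7* (YMR062C), an acetyltransferase of the mitochondrial part, -1.53 (adjusted p = 0.0303 and 0.0222). Of the 10 genes listed, 6 were lower, against 1.75% of all genes, and none was higher. The median was -1.58. Both HMF arrays were below both control arrays in all 10, against 22.1% of all genes. *ARG2* (YJL071W), the first enzyme, had the smallest change, with -0.61 (adjusted p = 0.34), and *ODC2* (YOR222W), a mitochondrial carrier of oxodicarboxylates outside the list, was lower, with a difference of -1.96 (SE 0.24, adjusted p = 0.0179).

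Genes of histidine and aromatic amino acid synthesis were also among the lower genes, which were 1.75% of all genes. Both HMF arrays were below both control arrays in 5 of 7 histidine and 10 of 13 aromatic genes, against 22.1% of all genes. *HIS4* (YCL030C), which carries 3 activities of histidine synthesis, was at -1.79 and -2.62 with HMF against 0.81 and 0.30 (-2.76, SE 0.38, adjusted p = 0.0191). *HIS3* (YOR202W) had -1.60 (adjusted p = 0.041) and *HIS5* (YIL116W) -1.27 (adjusted p = 0.0241), and with *HIS4* they were the 3 lower genes of the 7 listed (median -1.27), while *HIS2* (YFR025C) had 0.09 (adjusted p = 0.92). *ARO4* (YBR249C) and *ARO3* (YDR035W), the isoenzymes of the entry step to aromatic amino acids, had -1.90 and -1.59 (adjusted p = 0.0335 and 0.0382). *ARO2* (YGL148W), chorismate synthase, had -1.20 and *TRP4* (YDR354W), of the tryptophan branch, -1.03 (adjusted p = 0.0396 and 0.0335). These 4 of 13 aromatic genes were lower and none was higher (median -0.75), and at the other end *PHA2* (YNL316C), prephenate dehydratase of the phenylalanine branch, had 0.82 (adjusted p = 0.08). *ARO5* (YGL117W) was at -1.92 and -3.16 with HMF against 0.54 and 0.05 and was lower, with a difference of -2.83 (SE 0.45, adjusted p = 0.0249).

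In homoserine and threonine synthesis *HOM2* (YDR158W), aspartate semialdehyde dehydrogenase, and *HOM3* (YER052C), aspartate kinase, had -1.75 and -1.51 (adjusted p = 0.0191 in each), 2 of 5 genes with a median of -0.92. *ILV3* (YJR016C), dihydroxyacid dehydratase, was the only one of 11 branched-chain genes that passed, with -1.55 (SE 0.25, adjusted p = 0.0263) and a list median of -0.84. *SER3* (YER081W), of serine synthesis, had -1.53 and *STR2* (YJR130C), of the path between cysteine and methionine, -1.17 (adjusted p = 0.0318 and 0.0311). None of 8 lysine genes passed (median -0.54, lowest *LYS20* (YDL182W), a homocitrate synthase, with -1.18, adjusted p = 0.65). Of the 18 genes of sulfate assimilation and methionine synthesis 14 were above 0, with a median of 0.28 that turned to -0.07 on the deposited values. None of the 18 passed, and its ends were *MET14* (YKL001C), adenylylsulfate kinase, with 1.33 and *MET13* (YGL125W), a methylenetetrahydrofolate reductase, with -2.10 (adjusted p = 0.13 and 0.07).

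Breakdown of amino acids held genes that were higher. *CHA1* (YCL064C), the catabolic serine and threonine deaminase, was at 3.94 and 4.27 with HMF against -0.16 and 0.17, a difference of 4.10 (SE 0.24, adjusted p = 0.000245). *PUT2* (YHR037W), which oxidizes pyrroline-5-carboxylate to glutamate, was at 1.56 and 2.18 against -0.05 and 0.43 (1.68, SE 0.33, adjusted p = 0.0398), and *ALT1* (YLR089C), alanine transaminase, was higher by 1.37 (SE 0.29, adjusted p = 0.0468). Both controls of *CHA1* and *PUT2* stayed within 0.5 of 0 min. *PUT1* (YLR142W), the enzyme before *PUT2*, was at 2.73 and 2.78 with HMF, but its control arrays were at 2.96 and -0.10, so that the groups overlapped (1.33, adjusted p = 0.47). *CAR1* (YPL111W), arginase, had 1.61 (adjusted p = 0.07). Of 12 genes *CHA1*, *PUT2* and *ALT1* were higher, against 0.814% of all genes, and none was lower. Both HMF arrays were above both control arrays in 6 of the 12 and below in 2, against 21.7% and 22.1% of all genes. The median difference was 0.75. Relative to all genes the median was 0.31 without replicate 2 of the control and 1.00 without replicate 1, and the replicate block over all times gave 4 higher and 1 lower. The lowest was *ARO10* (YDR380W), phenylpyruvate decarboxylase, at -2.47 and 0.37 with HMF (-1.48, adjusted p = 0.44).

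Of 19 amino acid permeases, 1 was lower and none was higher (median -0.24). Relative to all genes this median turned to 0.06 without replicate 1 of HMF and to 0.09 without replicate 2 of the control, was -0.58 and -0.80 without the other replicate of each, and the replicate block over all times gave 1 higher and 3 lower. The gene that passed was *SAM3* (YPL274W), the permease of S-adenosylmethionine, with -1.50 and -1.51 against 0.28 and 0.60 (-1.95, SE 0.26, adjusted p = 0.0191). Its neighbor *SAM4* (YPL273W), a homocysteine methyltransferase that uses S-adenosylmethionine, was lower, with a difference of -1.33 (SE 0.26, adjusted p = 0.0404). *GAP1* (YKR039W), the general permease, was at -2.40 and -1.64 with HMF against -0.59 and 0.76 and had the lowest difference of the list (-2.11, adjusted p = 0.075), and *DIP5* (YPL265W), a permease of acidic amino acids, the highest with 1.19 (adjusted p = 0.18). *DUR3* (YHL016C), the importer of urea, had -1.73 (SE 0.31, adjusted p = 0.0318), and YIL165C and *NIT1* (YIL164C), 2 neighboring frames of a nitrilase gene, -1.87 and -1.69 (adjusted p = 0.0227 and 0.0241).

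None of the 21 regulators of amino acid and nitrogen genes passed, and their median was -0.10. *GCN4* (YEL009C) was at -0.20 and -0.97 with HMF against 0.00 and -0.06 (-0.55, adjusted p = 0.57). Its product is regulated mostly in translation, which arrays of RNA do not show. *DAL80* (YKR034W), a repressor of nitrogen catabolic genes, was highest with 2.66 and *CBF1* (YJR060W), a regulator of sulfur genes, lowest with -1.10 (adjusted p = 0.30 and 0.21). The other members were *MET32* (1.04), *MET31* (0.58), *PUT3* (0.36), *ARG81* (0.22), *GZF3* (0.19), *GCN2* (0.06), *ARG82* (-0.02), *STP1* (-0.05), *BAS1* (-0.06), *MET4* (-0.10), *GLN3* (-0.11), *MET28* (-0.23), *CHA4* (-0.25), *ARG80* (-0.28), *STP2* (-0.45), *LEU3* (-0.62), *LYS14* (-0.76) and *GAT1* (-0.78), each given as its difference.

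**Figure D4:**
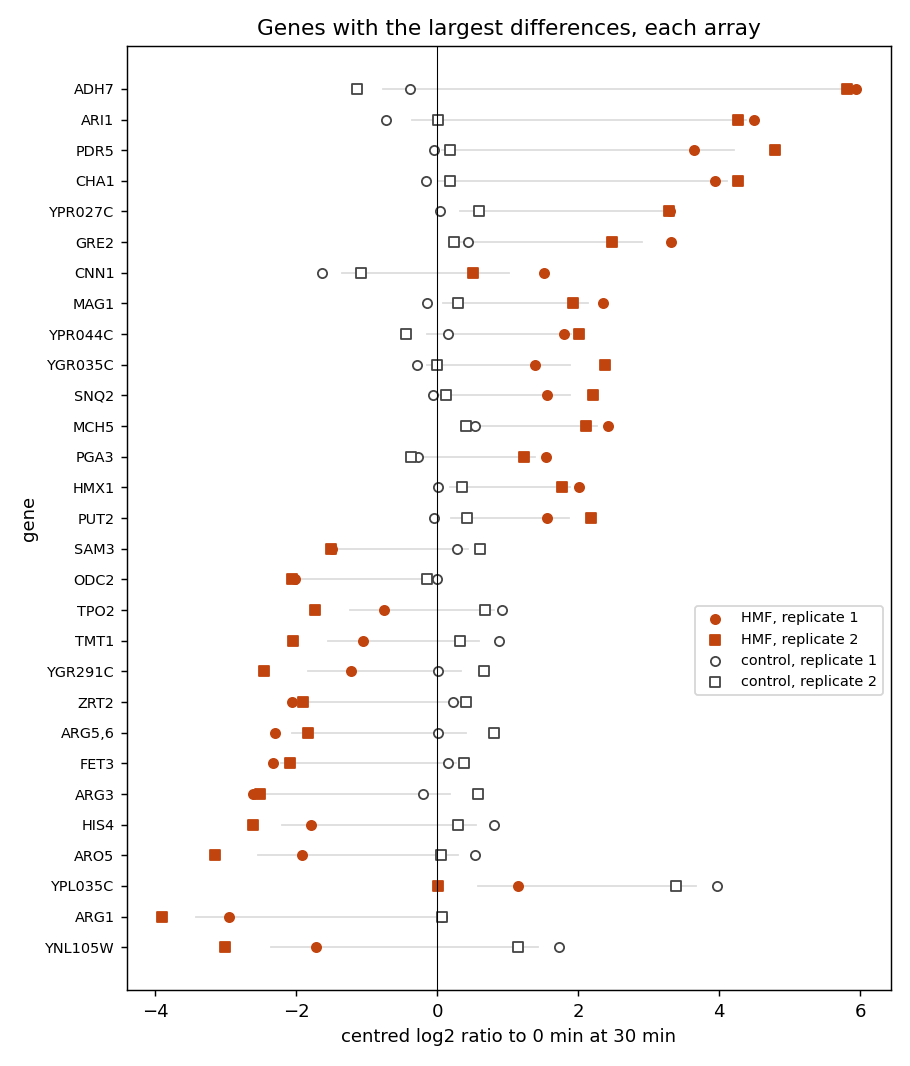
Centred log2 ratio to 0 min on each of the 4 arrays of 30 min (horizontal axis; filled orange, HMF; open, control; circles, replicate 1; squares, replicate 2) for the 15 genes with the largest and 14 of the 15 with the smallest differences among those that passed, with a grey line joining the group means. In these genes the HMF and control symbols do not overlap, and in YPL035C, YNL105W, *CNN1* and *ADH7* a control array lies more than 1 from 0.

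Metal and transport genes were also among the lowest. *FET3* (YMR058W), the ferroxidase of high-affinity iron uptake, was at -2.33 and -2.09 with HMF against 0.15 and 0.39 (-2.48, SE 0.35, adjusted p = 0.0192). Its partner permease *FTR1* (YER145C) had -0.77 (adjusted p = 0.42), and *FET3* was the only one of 21 iron uptake genes that passed (median 0.03, and -0.32 on the deposited values), the highest being the reductase *FRE4* (YNR060W) with 3.16 and control arrays at -3.21 and -0.77 (adjusted p = 0.28). *ZRT2* (YLR130C), the low-affinity zinc transporter, was at -2.06 and -1.91 against 0.22 and 0.41 (-2.30, SE 0.27, adjusted p = 0.0179) and was the only one of 11 biotin and zinc genes that passed (median -0.80). *TPO2* (YGR138C), a polyamine exporter, was lower, with a difference of -2.04 (SE 0.38, adjusted p = 0.0362) and *MAL31* (YBR298C), a maltose permease, was lower at -1.62 (SE 0.34, adjusted p = 0.0487). Of 9 maltose genes *MAL31* alone passed, with a list median of -0.97, and the maltase genes *MAL32* (YBR299W) and *MAL12* (YGR292W), which are near copies, had -1.87 and -1.68 (adjusted p = 0.07 and 0.09).

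In carbon metabolism the paralogs of pyruvate carboxylase, which feeds the TCA cycle, moved in opposite directions. *PYC1* (YGL062W) was at 1.26 and 1.44 with HMF against -0.17 and 0.08 (1.39, SE 0.23, adjusted p = 0.0263), and *PYC2* (YBR218C) at -0.79 and -0.94 against 0.45 and 0.15 (-1.17, SE 0.20, adjusted p = 0.0311). They were the only genes of 27 in the TCA and glyoxylate cycle list that passed (median -0.50, 4 above 0). In the pentose phosphate pathway, a source of NADPH, *GND1* (YHR183W), 6-phosphogluconate dehydrogenase, was at -0.80 and -1.54 against 0.14 and 0.17 (-1.33, SE 0.26, adjusted p = 0.0396). It was the only one of 11 genes that passed, and the list median was -0.95. *ZWF1* (YNL241C), which takes the first step, had -0.42 (adjusted p = 0.75), and *NQM1* (YGR043C), a transaldolase paralog, was the only member above 0, with 3.52 and 0.88 on the HMF arrays (2.09, adjusted p = 0.40). None of 24 glycolysis and fermentation genes (median -0.36) and none of 19 hexose transporters (median -0.35) passed.

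*OLE1* (YGL055W), the fatty acid desaturase, was lower, with a difference of -1.18 (SE 0.23, adjusted p = 0.0406), the only one of 14 fatty acid synthesis genes that passed. The H2B histone genes *HTB1* (YDR224C) and *HTB2* (YBL002W) had -1.16 and -1.12 (adjusted p = 0.0419 and 0.0499), and 9 of 10 histone genes were below 0 (median -0.96). The exception, *HTA2* (YBL003C), was at 4.54 and 2.52 with HMF and at 0.98 and 1.00 in the control (2.54, adjusted p = 0.48), although it encodes nearly the same H2A protein as *HTA1* (YDR225W), which had -0.97 (adjusted p = 0.17). *DPM1* (YPR183W) and *PMI40* (YER003C), which supply mannose for glycosylation, were lower, with differences of -1.41 and -1.22 (adjusted p = 0.0313 and 0.0442), and *TMT1* (YER175C), the trans-aconitate methyltransferase, was lower at -2.15 (SE 0.35, adjusted p = 0.0263). No cyclin or autophagy gene passed (12 and 18 genes), and of the 16 meiosis and 19 mating genes listed as marks of other cell states only *SPO77* (YLR341W), of spore wall formation, did (-1.24, SE 0.24, adjusted p = 0.0382).

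Higher genes outside these pathways were of varied function. *MAG1* (YER142C), a DNA glycosylase that removes alkylated bases, was at 2.36 and 1.92 with HMF against -0.14 and 0.30 (2.06, SE 0.26, adjusted p = 0.0179), the only one of 21 DNA damage and nucleotide genes that passed. *RNR1* (YER070W), the large subunit of ribonucleotide reductase, was at the other end with -1.53 (adjusted p = 0.11). *CNN1* (YFR046C), of the kinetochore, was at 1.51 and 0.51 against -1.63 and -1.08 (2.37, SE 0.35, adjusted p = 0.0227), so that part of its difference lay in a control below 0 min. *MCH5* (YOR306C), the riboflavin transporter, was higher by 1.79, *HMX1* (YLR205C), the heme oxygenase, by 1.71 and *PGA3* (YML125C), which resembles cytochrome b5 reductases, by 1.71 (adjusted p = 0.0318, 0.0392 and 0.0192). *SHM2* (YLR058C), cytosolic serine hydroxymethyltransferase, was higher by 1.03 (SE 0.21, adjusted p = 0.0442), the only one of 20 purine biosynthesis genes that passed.

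YML039W, YLR157C-B and YBL005W-B, frames of Ty retrotransposons, were higher by 1.14, 1.06 and 1.00 (adjusted p = 0.041, 0.0443 and 0.041), and the 4 listed Ty1 genes lay between 0.74 and 0.98 with none passed. Copies of Ty are nearly identical in sequence, so that these frames cannot be taken as separate. Among the genes that passed, 12 pairs carried the same or consecutive systematic numbers, 11 of them with both genes lower. YGL149W next to *ARO2* (-1.13 and -1.20) and YBR191W-A next to *RPL21A* (-1.39 and -1.22) are examples. In the pair called in opposite directions, *PRE2* (YPR103W), a proteasome core subunit, was higher by 1.11 and *RPL11A* (YPR102C), a ribosomal protein gene, lower, at -1.28 (adjusted p = 0.0396 and 0.0311).

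Frames with no symbol were found at both ends. Among the genes that passed, 1 higher and 6 lower frames had no entry among the reference genes. YNL105W, YPL035C, YPR044C and YGR291C are of this kind, while YPR027C has an entry. YNL105W had the lowest difference of all that passed, with -1.71 and -3.01 on the HMF arrays and 1.72 and 1.14 on the control arrays (-3.80, SE 0.62, adjusted p = 0.0263), and differences of 0.20 at 10 min and 0.02 at 60 min. YPL035C was at 1.15 and 0.02 with HMF but at 3.96 and 3.39 in the control (-3.09, SE 0.65, adjusted p = 0.0494). In both genes the control arrays were well above 0 min, unlike in nearly all other genes that passed. YPR027C was at 3.30 and 3.29 with HMF against 0.04 and 0.59 (2.98, SE 0.52, adjusted p = 0.0311), and YPR044C was higher by 2.05 (SE 0.39, adjusted p = 0.0382). YGR291C was lower, with a difference of -2.17 (SE 0.46, adjusted p = 0.0487). The lowest difference of all genes, -3.99 in YKL177W, did not pass (adjusted p = 0.25), with HMF arrays at -4.45 and -1.77 and control arrays at 2.20 and -0.43, and *STE3* (YKL178C), the a-factor receptor gene beside it, had -3.72 (adjusted p = 0.19).

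The difference at 30 min was set beside those at 10 and 60 min, each taken against control arrays of its own time. Samples of the 3 times may come from the same cultures, so that the times are not separate evidence. Of the 52 higher genes, 51 were above 0 at 10 min and 51 at 60 min, and 23 and 20 also passed as higher at these times. Of the 112 lower genes, 109 were below 0 at 10 min and 111 at 60 min, and 24 and 23 also passed as lower. At 10 min 41 genes passed as higher and 96 as lower, and at 60 min 36 and 26. All 3 times were passed by 13 higher and 13 lower genes. The median difference of the 52 was 1.06 at 10 min and 1.08 at 60 min, and that of the 112 was -0.89 and -0.87.

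Some lists stood differently at 10 min. The 73 ribosome biogenesis factors had a median difference of -1.24 after 10 min, then of 0.11 and -0.17, and the 8 RNA polymerase I genes of -1.46, 0.13 and 0.00. The median of the 23 heat shock proteins and chaperones was 0.73, -0.06 and 0.42 in the same order, and that of the 22 general stress genes 0.34, -0.88 and -0.87. On the centred arrays the medians of the proteasome (1.09, 1.09 and 0.95) and PDR lists (1.46, 1.41 and 1.64) were close at the 3 times. As deposited, the arrays of 10 min had medians of 0.56 and -0.32 with HMF against 0.28 and 1.29 without. Those of 60 min had 0.18 and 0.40 against 0.28 and -0.18. Centring thus moved the differences up at 10 and 30 min and down at 60 min. The medians of lists over time depend on it and were not taken on the deposited values. *SER3* was at 0.35 at 10 min and -1.53 at 30 min, and *DUR3* at 0.16 and -1.73.

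The test of the change itself passed in no gene. For the change from 10 to 30 min 0 of 6387 genes (0%) had an adjusted p of at most 0.05 in limma, with 461 at an unadjusted p of at most 0.05 and a smallest adjusted p of 0.45. For the change from 30 to 60 min the count was also 0 (0%), with 121 unadjusted and a smallest adjusted p of 0.33. The medians of lists at the 3 times are descriptions.

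**Figure D5:**
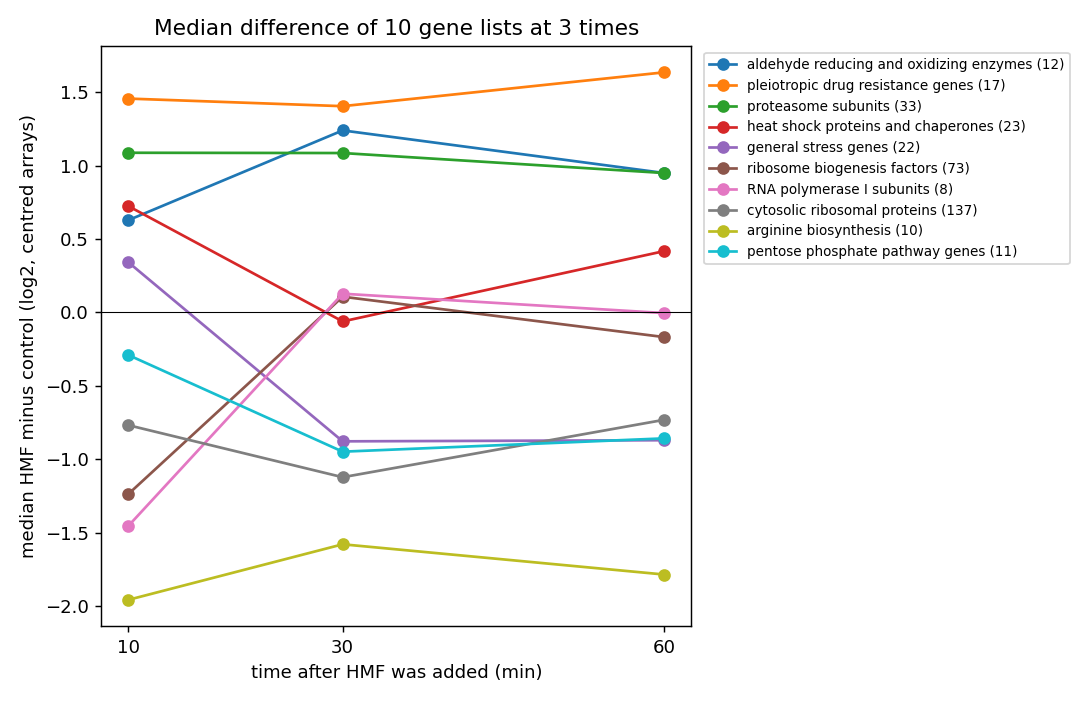
Median HMF minus control (log2, centred arrays; vertical axis) of 10 gene lists at 10, 30 and 60 min (horizontal axis), each point from 2 HMF and 2 control arrays of that time. The arginine and ribosomal protein lists stay below 0 and the proteasome and PDR lists above it, while ribosome biogenesis and RNA polymerase I genes go from -1.24 and -1.46 at 10 min to 0.11 and 0.13 at 30 min. The centring moved the differences by another amount at each time, and the courses depend on it.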

How the data were processed

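The values were 1 log2 ratio of test (Cy3) to 0 min reference (Cy5) for each of 6387 open reading frames and 14 arrays of long oligonucleotides, deposited by the authors after GenePix reading, subtraction of background from the median signal, inspection of spots by hand and normalization to a spike-in control. How duplicate spots were combined is not given in the sources used here, and the base and direction were checked against the study's fold changes. Signal intensities were not used here, so that no filter on dim spots could be set. The number of arrays limits the precision, and the part of dim spots in it was not tested.

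Symbols came from a table of reference genes, in which 5840 frames had an entry and 547 did not. Each array was centred on its median. The 8 combinations of treatment and time each had a mean in a fit of all 14 arrays with limma 3.58.1 in R 4.3.3 (6 residual and 2.53 prior degrees of freedom), with Benjamini-Hochberg adjustment over all genes and a limit of 0.05. An exact permutation test of 2 against 2 arrays cannot go below 0.333 (two-sided) and was not used. The fit was tested on simulated data with known changes. P values measure the spread between arrays of the same treatment and time. The paper describes replicated experiments with cells harvested over time, so that arrays of different times may come from the same cultures. The fit took all arrays as separate.

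Named genes are the 15 largest and 15 smallest differences among genes that passed with separate arrays, list members that passed, the ends of each list and the regulator genes. Members of a list between its ends, and genes outside the lists beyond these 30, were added after their values were seen. The 45 lists (952 genes, 1 entry not on the arrays) and the rule were chosen with earlier results of these data known. No set test was run. Of the genes the rule names, 1 is not reported here.

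Labels give the same replicate numbers to both treatments. Replicate 1 minus replicate 2 correlated between HMF and control across genes at 0.31 at 10 min, 0.28 at 30 min and 0.17 at 60 min. Between groups of different times the correlation ran from 0.02 to 0.36, the highest for HMF at 30 min with the control at 10 min. This was taken only as a hint that the numbers pair the arrays. The main fit used no replicate block, and blocks were tried as alternatives. Alternatives were the deposited values, quantile normalization, trimmed mean centring, replicate blocks, robust eBayes, an ordinary t test, fewer arrays and each array left out.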

Additional observations from a re-analysis of the deposited data

Results flagged for a closer look

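In YPR027C both HMF arrays were above both control arrays at 30 min (a difference of 2.98), while at 60 min both HMF arrays, at 0.78 and -0.67, were below both control arrays, at 2.54 and 2.55 (a difference of -2.49). The change between the times was 5.47 (SE 0.73), with an adjusted p of 0.33 in limma over all genes and an unadjusted p of 5.18e-05, the smallest of the 6387 genes, and so failed the correction. Of the 125 genes that passed at 30 min and are named by rule it was the only one whose arrays separated in the opposite direction at 10 or 60 min. Groups of 2 arrays are too small for a test of outlying arrays.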

How the results depend on the processing

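The 164 genes at 30 min became 17 on the deposited values (5 higher, 12 lower), 23 after quantile normalization (9 and 14), 144 after centring on a trimmed mean, 158 with robust eBayes, 164 without the 120 min arrays and 157 with a 2-fold minimum. An ordinary t test of the same contrast in the same fit, without the prior of limma, gave 976 genes without adjustment and 184 after Benjamini-Hochberg. It is not the paper's analysis of variance, which followed a filter on signal. With the replicate number as a block over all times the count was 335 (129 higher, 206 lower), and with a separate replicate block at each time 226 (73 and 153). Among 125 named genes that passed, the former kept all 125 and the latter 110. With only the 4 arrays of 30 min, where 2 residual degrees of freedom remain, it was 0 in limma (776 unadjusted). Leaving out 1 array gave 6 to 124 genes, 6 to 10 where it was an array of 30 min, whose group then holds 1 array taken to vary like the others. The cause of the drop to 8 without a control array of 60 min was not tested. Of the 125 genes, 13 were kept on the deposited values and 20 after quantile normalization. None changed its sign, which only quantile normalization could have done, since their arrays do not overlap and their differences exceed the centring shift. For the change from 10 to 30 min, leaving out 1 array gave 0 to 3 genes, the highest when the second 10 min control was dropped. For the change from 30 to 60 min the deposited values gave 1 gene, and the other settings gave 0. The median of 12 of the 45 lists changed sign on the deposited values, all of them lists with medians between 0.03 and 0.30 after centring. Signal over background and promoter sequences were not used here.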
